A study of Homo sapiens with 16 samples.

Results

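The 10 genes described here belong to the heat shock chaperone network and were measured in HMC3, a human cell line labelled as microglial, with or without a knockout of METTL3, the catalytic subunit of the enzyme that writes N6-methyladenosine on RNA. They were chosen by symbol: HSPA8, HSPA1A, HSPA1B, HSPH1, DNAJB1, HSP90AA1, HSP90AB1, HSPB1, HSPD1 and HSPE1, which are 10 of the 60669 genes listed, and each had 1 row in both deposited tables. The groups were wild-type HMC3 and HMC3 labelled METTL3 KO, with no other treatment named. Smart-seq2 on poly(A) RNA gave 5 libraries per genotype, available here only as the authors' table of 1 comparison. Depletion of ribosomal RNA followed by a directional kit gave 3 libraries per genotype, each with its own TPM, a level scaled for gene length and for the library's total. Both library types started from 100 ng of RNA. The labels do not say how the knockout was made, whether it is 1 clone, or whether libraries came from separate cultures, so p-values measure only the spread between these libraries.

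Chaperones of the HSP70 family bind unfolded stretches of protein and release them in cycles driven by ATP. J-domain proteins such as DNAJB1 deliver substrates and start the cycle, and nucleotide exchange factors such as HSPH1 reset it. HSP90 acts later, on nearly folded clients such as kinases and steroid receptors, small heat shock proteins hold aggregating proteins without ATP, and HSPD1 with its lid HSPE1 forms the folding chamber of the mitochondrial matrix. HSPA8 and HSP90AB1 are known as the constitutive forms, and HSPA1A, HSPA1B and DNAJB1 as classic targets of the heat shock factor HSF1, which binds inverted repeats of GAA.

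These repeats are the letters most of the genes share in front of their start sites, so the stretches that hold them are shown first. RefSeq promoters on GRCh38.p14 were searched in the 250 bases before each start for pairs of units, GAANNTTC or TTCNNGAA, and for triplets, in which another inverted unit follows a pair after any 2 bases, on either strand. A triplet also counts as overlapping pairs, and each pair reads the same on both strands. All 10 genes had an entry, 16 entries in all because some have several starts. A pair was found for 8 of the 10 genes, each at 1 of its starts. By entries this was 8 of 16, where 11.6% of 35116 promoters of the same length hold one. A triplet was found for 4 genes, HSPA8, HSP90AA1, HSP90AB1 and HSPD1. By entries this was 4 of 16, where 0.441% of promoters hold one. HSPH1 and HSPE1 had neither in these windows. The window of HSPE1 began at base 197500129 of chromosome 2, and the stretch shown for HSPD1 lies upstream, outside it. Since the genes are known as heat shock genes, these counts are a description of the set and not a result of the experiment. Capitals mark the matched letters, and stretches that GENCODE 29 places in an exon of some transcript are cut to 30 bases.
HSPA1A, chr6:31815417-31815463, plus strand: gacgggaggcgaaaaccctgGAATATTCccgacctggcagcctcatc
HSPA1B, chr6:31827613-31827660, plus strand: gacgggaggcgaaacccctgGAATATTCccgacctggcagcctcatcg
HSPA8, chr11:123062170-123062199, minus strand: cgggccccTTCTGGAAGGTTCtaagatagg
DNAJB1, chr19:14518421-14518494, minus strand: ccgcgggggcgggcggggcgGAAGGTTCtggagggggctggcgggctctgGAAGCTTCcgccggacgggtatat
HSP90AA1, chr14:102087111-102087140, minus strand: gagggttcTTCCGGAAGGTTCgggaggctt
HSP90AB1, chr6:44247758-44247863, plus strand: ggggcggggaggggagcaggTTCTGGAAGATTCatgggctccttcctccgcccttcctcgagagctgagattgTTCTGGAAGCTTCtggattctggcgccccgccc
HSPB1, chr7:76302471-76302518, plus strand: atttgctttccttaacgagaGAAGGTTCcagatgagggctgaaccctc
HSPD1, chr2:197500059-197500088, minus strand: attTTCTGGAAAGTTCTGGAAccgagcgag
The 250 bases before HSPA1A and HSPA1B were 94.4% identical over 249 aligned bases, with 14 differences, and the matched letters stood at the same place, 106 and 105 bases before the start. TATAAA or its reverse complement was found before these 2 genes alone among the 10, at 2 of 16 entries, and before 10.7% of all promoters. CCAAT or its reverse complement was found before 5 of the 10, at 7 of 16 entries, and before 32.0% of all promoters.

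The rRNA-depleted libraries held 266157 to 487272 reads in the wild type and 512627 to 1267171 reads in the libraries labelled knockout, recovered from TPM and exon lengths. Limits set by reads cover counting error only. Knockout-labelled libraries 1 and 2 differed by about as much as sampling noise alone gives (chi-square 1.02 per degree of freedom, against 1.16 to 1.54 for the other pairs of 1 label) and were averaged and counted as 1 sample, which left n = 3 and n = 2. METTL3, the targeted gene, had 25.4 to 31.6 TPM in the wild type and 39.2 to 42.7 TPM in the libraries labelled knockout, with a limma adjusted p of 0.106, so its mRNA does not check the label. Of 12 microglial markers 9 were at 0 in all 6 libraries, among them AIF1, CX3CR1, P2RY12 and TMEM119, and the sum over the 12 was 0.00 to 6.47 TPM in the wild type and 0.532 to 5.24 TPM with the knockout label. The 8 fibroblast or pericyte markers summed to 10558 to 12963 TPM in the wild type and 1905 to 1993 TPM with the knockout label. COL1A1 alone had 9612 to 11995 TPM and 749 to 865 TPM of these sums. The markers did not move together, as 3 of the 8 fell and 2 rose past the threshold. THY1 rose from 121 to 131 TPM to 248 to 270 TPM, and S100A6 from 136 to 202 TPM to 674 to 780 TPM. LUM was at 0 in all 6 libraries, and COL3A1 and DCN had at most 2.08 and 0.466 TPM. The part of these markers in the results below was not tested. The labelled cell type is therefore not borne out by its defining markers, and the cells are called HMC3 here.

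In the rRNA-depleted libraries the 10 chaperones split. HSPA8, HSPH1, DNAJB1, HSP90AA1, HSP90AB1, HSPB1, HSPD1 and HSPE1 rose in the libraries labelled knockout, by 1.97 to 5.12 times in mean TPM, while HSPA1B fell to 0.424 of its wild-type level and HSPA1A, its near-identical copy, had 0.652 of its wild-type level without passing the test. In all 8 rose and 1 fell at an adjusted p under 0.05 (limma). Over all 14789 genes tested 35.3% passed, 22.9% higher and 12.4% lower. Among the 3282 genes that averaged 49.5 TPM or more, the lowest mean of a chaperone, 62.4% passed, 34.6% higher and 27.7% lower, so passing the test is common at these levels. The groups of 3 libraries did not overlap for 9 of the 10 chaperones and for 58.4% of all genes tested. In bulk RNA, fewer cells of a type and less RNA per cell cannot be told apart, and TPM gives shares of a library, not amounts per cell.

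The median log2 difference of all genes tested was 0.41, and that of the 10 chaperones was 1.22, or 0.81 relative to all genes. With median ratio scaling the median of all genes was 0.11 and the genes past the threshold were 48.6% higher, against 64.8% with TPM as deposited. The split was 52.1% higher under quantile normalization, 52.4% under voom and 55.8% with scaling to nuclear protein-coding genes. The same 8 chaperones were higher past the threshold under each of these 4 scalings, and HSPA1A then passed as lower beside HSPA1B. Without knockout-labelled library 3, which leaves 1 averaged sample with that label assumed to vary like the wild type, 3 chaperones passed (HSPA8, HSPD1 and HSPE1) and 1663 genes in all.

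**Figure D1:**
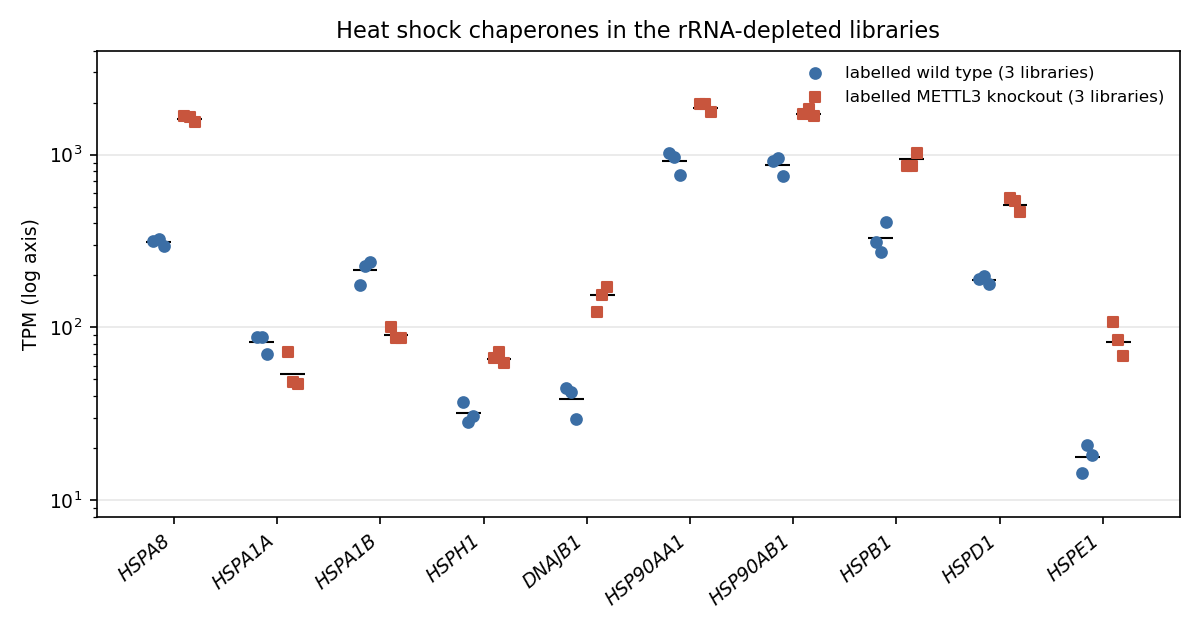
TPM of each chaperone (log axis) in the 3 wild-type libraries (circles) and the 3 libraries labelled METTL3 knockout (squares) of the rRNA-depleted type, with the mean of each group as a line (libraries 1 and 2 of the knockout label averaged first). The knockout-labelled squares stand above the circles for 8 genes, below them for HSPA1B, and within their range at 1 point for HSPA1A.

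HSPA8, the constitutive cytosolic HSP70, showed the largest log2 difference of the 10 with TPM as deposited, but not under every alternative. With the GC trend removed DNAJB1 (2.40), HSPB1 (2.32) and HSPE1 (2.26) exceeded HSPA8 (2.16), and with retrocopies summed HSPE1 (2.78) exceeded HSPA8 (2.33). HSPA8 (ENSG00000109971; chromosome 11, 123057489 to 123063230, minus strand, GRCh38) had 317, 327 and 298 TPM in the wild type (libraries in the order of their numbers, here and below) and 1685, 1645 and 1549 TPM with the knockout label. Each knockout-labelled library was thus above every wild-type library by a wide margin in TPM. These values rested on 153 to 241 reads in the wild type and 1163 to 2913 reads with the knockout label. The reads are not scaled for depth, which was higher with the knockout label. HSPA8 averaged 314 ± 14.8 TPM over the wild type (SD, n = 3), whereas the knockout label gave 1607 ± 82.1 TPM (SD, n = 2), a log2 difference of 2.35 (SE 0.10) with a limma adjusted p of 0.000689. Among the tested genes it ranked 359 by mean TPM in the wild type and 42 with the knockout label. Under the alternatives run it was 1.999 to 2.41 and it passed in every one.

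HSPA1A and HSPA1B encode the stress-inducible cytosolic HSP70 and lie beside each other in the major histocompatibility region, each with 1 exon. HSPA1B (ENSG00000204388; chromosome 6, 31827735 to 31830255, plus strand) had 177, 226 and 237 TPM in the wild type and 101, 86.9 and 87.1 TPM with the knockout label, so the groups did not overlap. Its log2 difference was -1.22 (SE 0.16; limma adjusted p 0.00523). HSPA1A (ENSG00000204389; chromosome 6, 31815464 to 31817946, plus strand) had 88.4, 87.5 and 69.9 TPM in the wild type and 71.5, 48.5 and 46.8 TPM with the knockout label. Knockout-labelled library 1 lay inside the wild-type range, and the log2 difference of -0.61 (SE 0.19) had a limma adjusted p of 0.0547. HSPA1A rested on 21 to 31 reads per wild-type library and 18 to 53 per knockout-labelled library, HSPA1B on 55 to 100 and 34 to 80.

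The copies differ in few bases, so reads from one may have been placed on the other, and all their values came out as whole reads, with none divided between them. Their rows were therefore also summed. The sum was 265, 313 and 307 TPM in the wild type and 173, 135 and 134 TPM with the knockout label, which does not overlap. Its log2 difference was -1.03 (SE 0.13; limma adjusted p 0.00445) when the summed row replaced both copies. GENCODE 29 also places 36.5% of the exon bases of HSPA1B in a noncoding transcript on the same strand, AL671762.1, which was not analysed here.

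HSPA1A alone crossed the threshold under 7 of 18 alternatives, among them without wild-type library 3 (just under the threshold of 0.05) and without knockout-labelled library 1 (limma adjusted p 0.0193). With the trend of expression on GC content removed from each library, the log2 difference was -0.05 for HSPA1A (limma adjusted p 0.873) and -0.68 for HSPA1B (limma adjusted p 0.0339). Neither gene changed sign in any alternative.

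The composition of the cytosolic HSP70 transcripts also differed between the groups. HSPA1A and HSPA1B together were 45.6%, 49.0% and 50.8% of the summed TPM of HSPA8, HSPA1A and HSPA1B in the wild type, and 9.29%, 7.61% and 7.96% with the knockout label. HSPA8 stood at 1.19, 1.04 and 0.968 times the summed inducible pair in the wild type and at 9.76, 12.1 and 11.6 times with the knockout label. By TPM the pair was thus about level with HSPA8 in every wild-type rRNA-depleted library and far below it in every knockout-labelled one. The lengths behind TPM merge all annotated exons, 4849 bases for HSPA8 against 2483 for HSPA1A and 2521 for HSPA1B. Wild-type libraries held 153 to 241 reads of HSPA8, 21 to 31 of HSPA1A and 55 to 100 of HSPA1B. The near-equal level therefore depends on these lengths, and other lengths were not tested. For the poly(A) libraries only a mean over both genotypes is deposited. By mean normalized count per kilobase of exon, computed from the authors' deposited table, the same pair made up 1.62% of the 3 genes there. The near-equal TPM of the wild-type rRNA-depleted libraries was not seen in that mean, and the gap between library types was not tested.

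**Figure D2:**
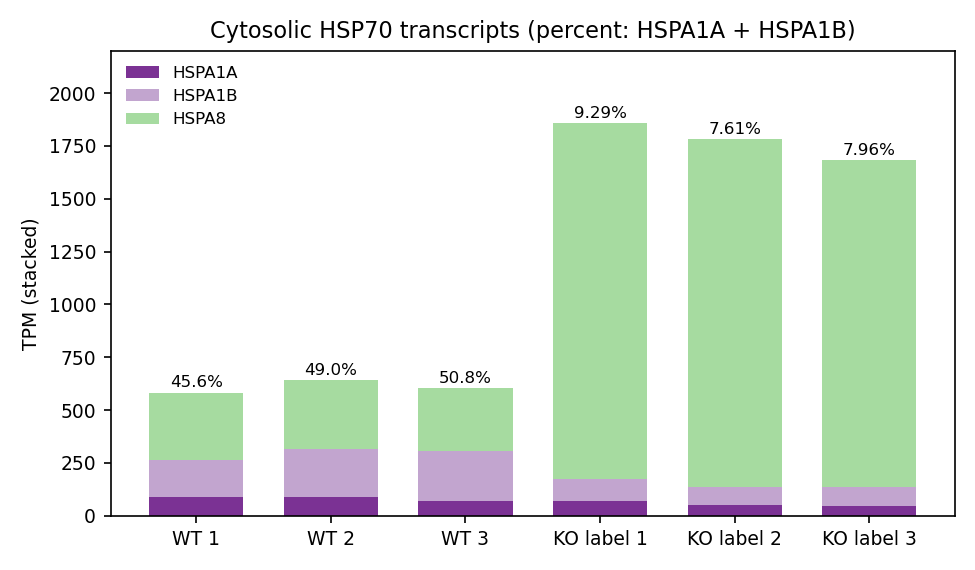
Stacked TPM of HSPA1A, HSPA1B and HSPA8 in each rRNA-depleted library (linear axis from 0), with the share of HSPA1A plus HSPA1B above each bar. The share is 45.6% to 50.8% in the wild-type libraries and 7.61% to 9.29% in the libraries labelled knockout.

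The partners of HSP70 rose as well. DNAJB1, the J-domain protein that hands substrates to HSP70 (ENSG00000132002; chromosome 19, 14514770 to 14529770, minus strand), had 44.4, 42.3 and 29.3 TPM in the wild type and 123, 153 and 171 TPM with the knockout label. The groups stood apart, and the log2 difference was 1.98 (SE 0.23; limma adjusted p 0.00388). HSPH1, the HSP110 exchange factor (ENSG00000120694; chromosome 13, 31134974 to 31162388, minus strand), had 37.1, 28.4 and 30.7 TPM in the wild type and 66.7, 71.8 and 62.3 TPM with the knockout label. Its log2 difference was 1.02 (SE 0.18; limma adjusted p 0.0122), and with the GC trend removed it was 0.42 and did not pass (limma adjusted p 0.101).

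Of these partners HSPH1 rose by a smaller factor than HSPA8. The ratio of HSPA8 to HSPH1 in TPM was 8.53 to 11.5 in the wild type and 22.9 to 25.2 with the knockout label, without overlap. The size of such a ratio depends on the merged exon lengths used, 4849 bases for HSPA8 and 8390 for HSPH1. It is not a count of molecules, and only its difference between the groups is read here. The ratio of HSPA8 to DNAJB1 was 7.14 to 10.1 in the wild type and 9.08 to 13.7 with the knockout label, which does overlap. DNAJB1 rested on 15 to 23 reads per wild-type library, so its ratio is less precise.

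Both cytosolic HSP90 genes rose by about the same factor. HSP90AA1, the stress-responsive alpha form (ENSG00000080824; chromosome 14, 102080738 to 102139699, minus strand), had 1027, 974 and 765 TPM in the wild type and 1963, 1965 and 1765 TPM with the knockout label. HSP90AB1, the constitutive beta form (ENSG00000096384; chromosome 6, 44246166 to 44253888, plus strand), had 920, 958 and 751 TPM in the wild type and 1724, 1851 and 1673 TPM with the knockout label. For both genes wild-type library 3 was the lowest library and no value of the 2 groups overlapped. The log2 differences were 1.02 (SE 0.16; limma adjusted p 0.00823) for HSP90AA1 and 0.99 (SE 0.14; limma adjusted p 0.00625) for HSP90AB1. With median ratio scaling they were 0.67 and 0.63, and that of HSPH1 was 0.67, all still past the threshold. In the rRNA-depleted libraries the ratio of HSP90AA1 to HSP90AB1 was 1.02 to 1.12 in the wild type and 1.05 to 1.14 with the knockout label. The balance of the forms thus overlapped between these groups. In the poly(A) libraries the ratio was 0.378 by mean normalized count per kilobase of exon over both genotypes, computed from the authors' deposited table. The log2 ratios there were 0.55 for HSP90AA1 and -0.13 for HSP90AB1.

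HSPB1, the small heat shock protein also called HSP27 (ENSG00000106211; chromosome 7, 76302544 to 76304295, plus strand), had 312, 272 and 407 TPM in the wild type and 862, 860 and 1020 TPM with the knockout label. The spread within each group was small beside the gap between them. Its log2 difference was 1.52 (SE 0.20; limma adjusted p 0.00499), and 2.32 with the GC trend removed. HSPB1 has the highest GC content of the 10 transcripts, 64.3%, and 891 tested genes within 2 percentage points of it had a median log2 difference of -0.39.

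The mitochondrial pair HSPD1 and HSPE1 is transcribed in opposite directions from a shared promoter region on chromosome 2. HSPD1 (ENSG00000144381; 197486581 to 197516737, minus strand), the subunit of the chamber, had 190.2, 197 and 178 TPM in the wild type and 558, 541 and 467 TPM with the knockout label. HSPE1 (ENSG00000115541; 197499994 to 197503457, plus strand), the subunit of the lid, had 14.3, 20.9 and 18.2 TPM in the wild type and 107, 84.5 and 68.6 TPM with the knockout label. Both rose without overlap, by a log2 difference of 1.42 (SE 0.12; limma adjusted p 0.00188) for HSPD1 and 2.14 (SE 0.25; limma adjusted p 0.0041) for HSPE1. HSPE1 is the least certain of the 10, with 4 to 6 reads per wild-type library and 21 to 63 per knockout-labelled library. The ratio of HSPD1 to HSPE1 was 9.43 to 13.3 in the wild type and 5.23 to 6.81 with the knockout label. In GENCODE 29 the exons of the 2 genes share 281 bases on opposite strands, and whether the counting used strand is not given in the sources used here. HSPE1 also shares 192 exon bases with HSPE1-MOB4 on its own strand, and 23.9% of its exon bases are shared in all. Whether reads from the shared bases were counted for HSPE1 was not tested.

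By TPM, which is per length, HSP90AA1 and HSP90AB1 were the most abundant of the 10 in both groups, and their ranges overlapped. The order given here depends on the merged exon lengths, from 1634 bases for HSPB1 to 8390 for HSPH1, and was not tested with other lengths. In the wild type HSPB1 and HSPA8 came next with overlapping ranges, followed by HSPA1B and HSPD1, which overlapped each other, then HSPA1A, then DNAJB1 and HSPH1, which overlapped, and HSPE1 last. With the knockout label HSPA8 reached the range of HSP90AB1, HSPB1 and HSPD1 followed without overlap, then DNAJB1, and HSPA1B, HSPE1, HSPH1 and HSPA1A formed a lowest group in which each overlapped its neighbour. HSPA1A moved from rank 7 to rank 10 and HSPE1 from rank 10 to rank 8. The 10 genes together made up 0.278% to 0.313% of all TPM in the wild type and 0.691% to 0.731% with the knockout label.

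The poly(A) libraries measure the same contrast on polyadenylated RNA. The authors' deposited table does not name the numerator of its fold change, and a positive value is taken here as higher with the knockout label. Of the 10 chaperones 5 had an adjusted p under 0.05 in the authors' deposited table, 3 higher and 2 lower, where 19.9% of 14009 genes passed, 9.55% higher and 10.3% lower. The 3 that rose there were DNAJB1, HSP90AA1 and HSPD1, and the 2 that fell were HSPA1B and HSPA1A. Of these 5, 4 passed in the same direction in the rRNA-depleted libraries, all but HSPA1A. That count rests on the sign taken here, and with the other numerator none would pass in the same direction.

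The authors' deposited table gave HSPA1B a log2 ratio of -1.02 (SE 0.25; adjusted p 0.000839). HSPA1A followed there with -0.77 (SE 0.28; adjusted p 0.0305 in the authors' deposited table). Both rested on low levels, with mean normalized counts of 24.9 and 26.9 in the authors' deposited table against 6085 for HSPA8. The log2 ratios in the authors' deposited table were 0.60 (SE 0.11; adjusted p 3.11e-06) for DNAJB1, 0.55 (SE 0.06; adjusted p 5.73e-18) for HSP90AA1 and 0.25 (SE 0.06; adjusted p 0.000362) for HSPD1. These are smaller than the values of the same genes in the rRNA-depleted libraries, and the difference between library types was not tested.

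The other 5 did not pass in the poly(A) libraries. For HSPA8 the authors' deposited table gave a log2 ratio of -0.01 (SE 0.05; adjusted p 0.943), against 2.35 in the rRNA-depleted libraries. GENCODE places 175 of the 4849 exon bases of HSPA8 (3.61%) also in SNORD14C and SNORD14D, genes on the same strand. Whether reads of these genes were counted for HSPA8 in either library type was not tested. The authors' deposited table gave 0.07 (SE 0.08) for HSPH1, -0.13 (SE 0.09) for HSP90AB1, -0.13 (SE 0.09) for HSPB1 and -0.33 (SE 0.17) for HSPE1, with adjusted p-values of 0.652, 0.358, 0.362 and 0.180. The median over the 10 was -0.07 in the authors' deposited table, against 0.02 over all its genes with an adjusted p. Only HSPA1B passed there with a log2 ratio of 1 or more in size, and neither HSPA1 copy is left when a mean normalized count of at least 50 is required.

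**Figure D3:**
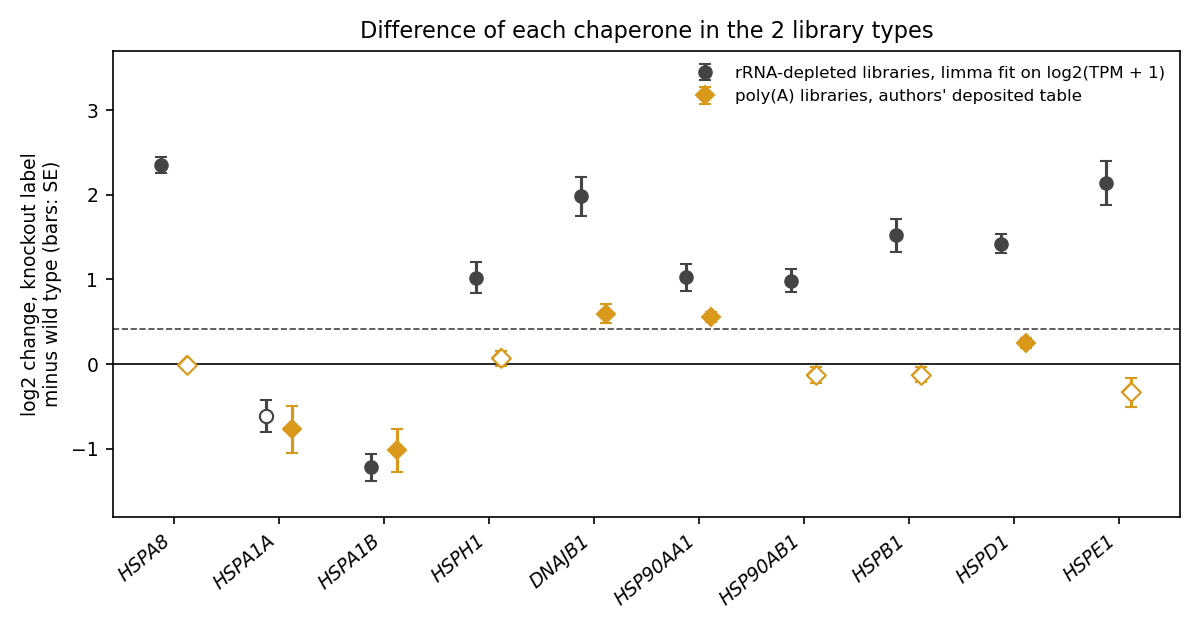
Log2 change of each chaperone, knockout label minus wild type, in the rRNA-depleted libraries (circles, limma fit) and in the poly(A) libraries (diamonds, authors' deposited table), with SE as bars, open symbols where the adjusted p is 0.05 or more, and the median of all genes in the rRNA-depleted fit as a dashed line. HSPA1A and HSPA1B lie below 0 in both, and HSPA8 lies at 2.35 in one and -0.01 in the other.

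In the rRNA-depleted libraries the log2 difference fell with GC content over all genes, so the chaperones are set beside genes of like GC content. The median of genes within 2 percentage points was 1.04 for HSPH1, whose own value was 1.02, and 49.1% of those genes lay below it. HSP90AA1 and HSP90AB1 lay above 58.5% and 63.9% of the genes of like GC content, and HSPD1 above 70.4%. HSPB1, DNAJB1, HSPE1 and HSPA8 lay higher, above 96.1%, 92.5%, 91.7% and 91.0%. HSPA1B, at a GC content of 58.7%, lay above 13.9% of such genes and HSPA1A above 30.1%. The part of GC content in these changes was not tested beyond the fit with its trend removed.

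**Figure D4:**
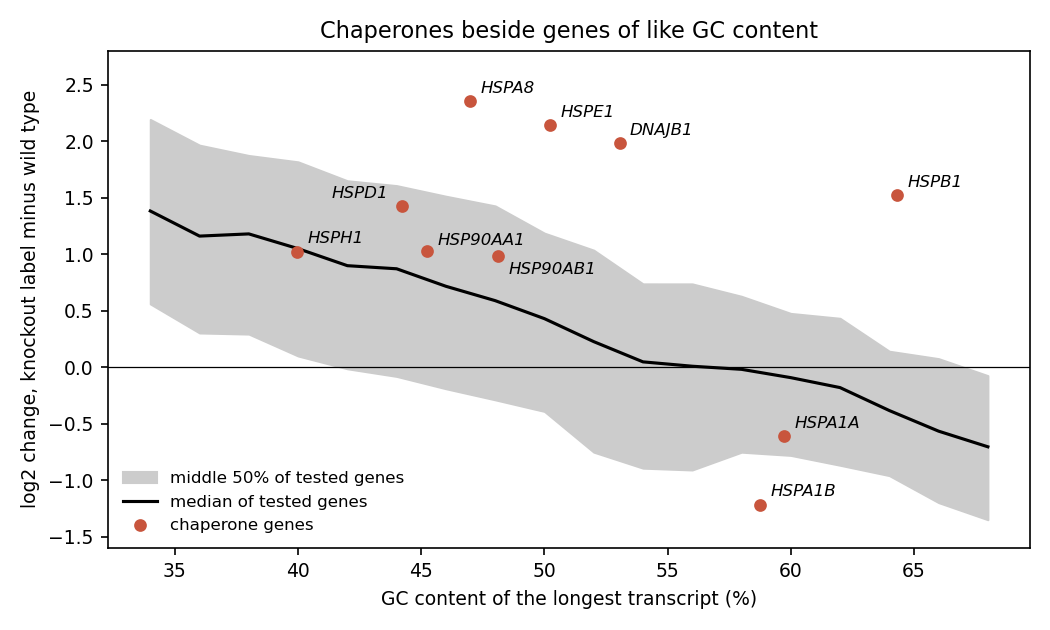
Log2 change, knockout label minus wild type, in the rRNA-depleted libraries against the GC content of the longest transcript, for the chaperones (points) and for all tested genes (median as a line, middle 50% shaded). HSPA8, HSPE1, DNAJB1 and HSPB1 lie above the shaded band, HSPA1B lies below it, and HSPH1 lies on the median.

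HSPA1A and HSPA1B also differ from the other 8 in having no intron, where the others have 2 to 18 exons in their longest transcript. Among 445 other single-exon coding genes tested, 20.9% rose and 19.1% fell, and with histone genes left out 17.3% of 398 rose and 18.6% fell. Among 11326 coding genes with more exons 25.5% rose and 10.8% fell.

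HSF1 itself, the factor that binds the repeats shown above, had 85.4 to 98.1 TPM in the wild type and 65.0 to 81.5 TPM with the knockout label and did not pass in either library type (limma adjusted p 0.146 in the rRNA-depleted libraries), and 2 of the 4 genes in its list rose in the rRNA-depleted libraries. These were HSBP1, which binds HSF1, and HSF2, a related factor. HSBP1 had 3.72, 3.26 and 11.9 TPM in the wild type and 42.2, 38.2 and 33.2 TPM with the knockout label. HSF2 was listed at 0 in all wild-type libraries and at 14.3 to 28.4 TPM with the knockout label, at least 2.40-fold higher against 3 reads per wild-type library. With wild-type library 1 left out HSBP1 had a limma adjusted p of 0.0561. None of the 4 passed in the authors' deposited table.

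Of 8 other heat-inducible genes tested 6 rose and 0 fell, with a median log2 difference of 1.34. Over all genes tested 22.9% rose and 12.4% fell. BAG3, an HSP70 co-chaperone for selective autophagy, had a log2 difference of 2.05, CHORDC1, an HSP90 partner, 1.95, and DNAJA1, a J-domain protein, 1.88. BAG3 did not pass with median ratio scaling (limma adjusted p 0.0525) or without wild-type library 2 (limma adjusted p 0.0576). Of 9 genes of this list 2 rose and 3 fell in the authors' deposited table, BAG3 among the former (log2 ratio 0.49) and CHORDC1 among the latter (-0.28).

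The remaining HSP70 and HSP110 relatives gave 3 that rose and 0 that fell of 7 tested, with a median of 1.40. HSPA4, a close relative of HSPH1, rose from 84.3 to 88.2 TPM in the wild type to 324 to 362 TPM with the knockout label, a log2 difference of 1.97 (limma adjusted p 0.000944), and HSPA13 and HSPA14 rose by 2.26 and 2.52. HSPA4 also rose in the authors' deposited table (log2 ratio 0.38). Of 19 other J-domain proteins and exchange factors 10 rose and 2 fell, with a median of 1.01. DNAJB5, BAG3 and DNAJC8 showed the largest changes, DNAJB5 by 2.10 and DNAJC8 from 24.5 to 41.5 TPM in the wild type to 134 to 137 TPM with the knockout label, and DNAJB5 did not pass under 8 alternatives. The 2 that fell were BAG1, a nucleotide exchange factor (-1.96), and DNAJC9, a histone chaperone (-1.53). None of the 2 other small heat shock proteins tested passed in the rRNA-depleted libraries, and 1 of 2 fell in the authors' deposited table.

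The cytosolic chaperonin TRiC, which folds actin and tubulin, and prefoldin, which delivers its substrates, gave 9 that rose and 0 that fell of 14 tested, with a median of 1.31. PFDN4, PFDN2 and CCT6A had log2 differences of 2.19, 1.89 and 1.62. Of the same 14 none rose and 7 fell in the authors' deposited table, among them PFDN4 (-0.34) and PFDN2 (-0.52). HSP90 co-chaperones were mixed in the rRNA-depleted libraries, with 5 that rose and 4 that fell of 18 and a median of 0.28. CHORDC1, STIP1, which links HSP70 to HSP90, and AHSA1, which activates the ATPase of HSP90, rose by 1.95, 1.72 and 1.63. Of the 18 co-chaperones none rose and 6 fell in the authors' deposited table.

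Beside HSPD1 and HSPE1, 3 of 16 mitochondrial chaperones and proteases rose and 2 fell, with a median of 0.19. HSPA9, the HSP70 of the mitochondrial matrix, rose by a log2 difference of 2.33 and its exchange factor GRPEL1 by 1.86 (limma adjusted p 0.0514 without wild-type library 3), while DNAJC19, with at most 3 reads in a wild-type library, was at least 3.06-fold higher and did not pass under 9 alternatives. HSPA9 rose in the authors' deposited table as well (0.30), where 4 of the 16 rose and 5 fell. ER chaperones gave 4 that rose and 3 that fell of 14, with a median of 0.27. PDIA6 rose by 1.62, SDF2L1 fell by 2.46 on the log2 scale, and DNAJB9 was listed at 0 in the wild type and passed the test without exceeding 3 reads per wild-type library. Of the 14 ER chaperones none rose and 7 fell in the authors' deposited table, SDF2L1 among them (-0.76). Without knockout-labelled library 3, 13 of the 21 genes named from these lists did not pass. Some genes stand in more than 1 list. The lists give counts and medians beside a median of 0.41 over all genes and were not tested as sets. Of all genes 22.9% rose and 12.4% fell in the rRNA-depleted libraries, and 9.55% rose and 10.3% fell in the authors' deposited table.

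**Figure D5:**
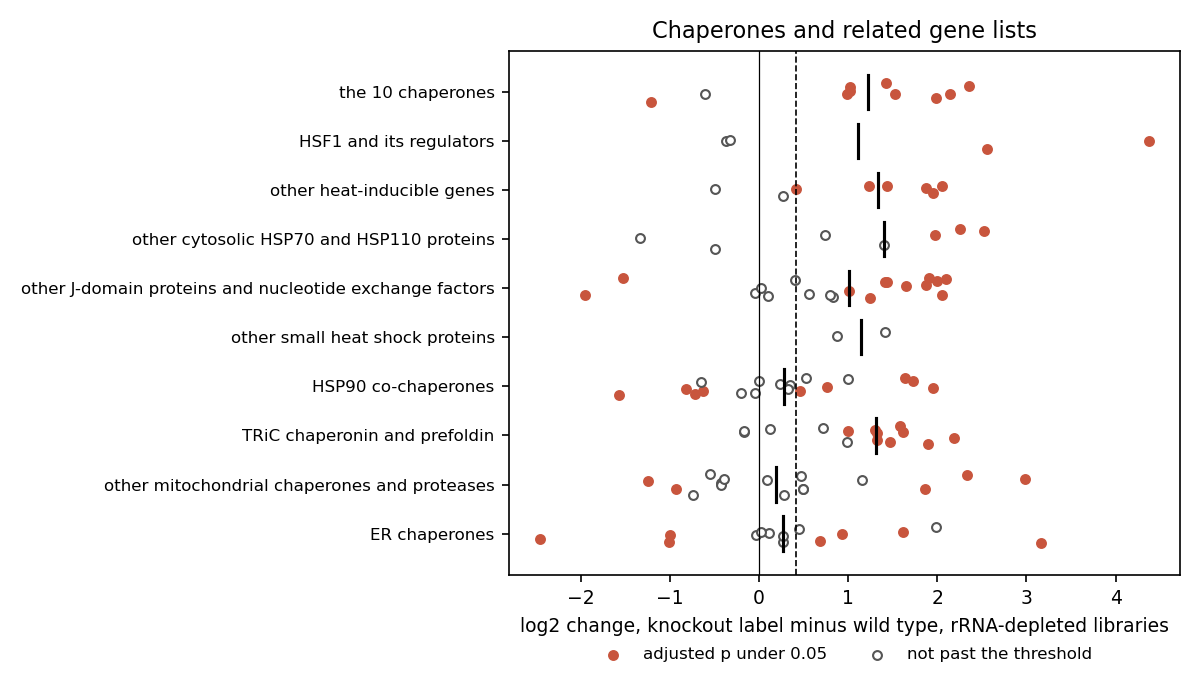
Log2 change, knockout label minus wild type, in the rRNA-depleted libraries for the 10 chaperones and for each tested gene of the related lists (filled: limma adjusted p under 0.05; open: not), with the median of each list as a bar and the median of all genes as a dashed line (0.41). The medians of TRiC and prefoldin (1.31) and of the other HSP70 and HSP110 proteins (1.40) lie to the right of the dashed line, and those of the HSP90 co-chaperones (0.28) and ER chaperones (0.27) to its left.

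HSP90AA1 had the highest mean TPM of the 10. The 5 genes of at least 20 TPM whose log2(TPM + 1) followed it most closely over the 6 libraries, of 6824 compared, were HMGB2, SNRPF, CAP1, DROSHA and ACAP2, with a Pearson r of 0.9990 to 0.9995. The 6 libraries fall into the groups of the contrast and share wild-type library 3 as their lowest value, so r is given as a description. HMGB2 had 194, 183 and 157 TPM in the wild type and 302, 302 and 277 TPM with the knockout label.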

How the data were processed

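Groups of HMC3 libraries follow genotype and library type as the titles give them. Per the submitters' processing notes Trimmomatic, STAR and DESeq2 were used on build hg38. The counting tool, the annotation and the use of strand are not given in the sources used here. The authors deposited TPM for each rRNA-depleted library. For poly(A) RNA they deposited 1 comparison. It holds, per the file headers, the mean normalized count (a signal over all its libraries), the log2 ratio and its SE, the Wald score, and the raw and adjusted p-value. No count test was possible on that table, and it was described as deposited.

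Reads were recovered from TPM with GENCODE 29 exon lengths. These matched 56927 of 60669 identifiers, and 90.9% of values above 0 came out whole to within 0.02 reads. Knockout-labelled libraries 1 and 2 did not pass a chi-square test of difference in reads (p = 0.0687) and were averaged, while every other pair of 1 label differed. limma 3.58.1 in R 4.3.3 (trend, genotype as the term) was fitted to log2(TPM + 1) for genes reaching 1 TPM in 3 or more libraries, with Benjamini-Hochberg adjustment at 0.05. The step was tested on simulated reads. Differences on the log2(TPM + 1) scale understate those of low genes.

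The members, related lists and tests were chosen with earlier results of these data known. All members and METTL3 were named, with up to 3 genes per related list (the largest changes past the threshold) and the 5 genes most like the most abundant member. Other genes named were chosen after their values were seen. Alternatives covered the pseudocount, filters, scaling, GC content, sample merging, the replicate block, single libraries, voom, near-identical copies, retrocopies and thresholds. Scaling to nuclear protein-coding genes was chosen after seeing the data. Python 3.11.15, pandas 2.3.3 and matplotlib 3.10.9 were used for other steps.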

Additional observations from a re-analysis of the deposited data

How the results depend on the processing

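The log2 differences of the 10 chaperones kept their sign in all 188 combinations of gene and alternative, and in 173 of them also their side of the threshold. Of the exceptions, 7 were HSPA1A coming to pass, 3 were HSPH1 and 5 came without knockout-labelled library 3 (HSPA1B, DNAJB1, HSP90AA1, HSP90AB1 and HSPB1). Leaving out 1 library at a time gave 1663 to 5185 genes past the threshold and 3 to 10 chaperones, the lowest without knockout-labelled library 3, where fewer samples remain. An adjusted p under 0.01 left 2242 genes in the rRNA-depleted libraries and 1811 in the authors' deposited table. A log2 ratio of 1 or more in size left 647 genes and 1 chaperone in the authors' deposited table, and a mean count of at least 50 left 3 chaperones there. No alternative reversed any of the 21 genes named from related lists, and 361 of their 398 results kept their side of the threshold.

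Same-numbered libraries of the 2 genotypes did not deviate together (r = 0.020, -0.020 and 0.0082 over 14789 genes), and libraries did not all correlate best with their own number. With the replicate block and 6 separate libraries 6037 genes and 10 chaperones passed, HSPA1A among them with a limma adjusted p of 0.0427. Depth limits HSPE1, HSPA1A and DNAJB1 most.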

Other observations

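Annotated retrocopies of the chaperones, which lack introns and resemble the mRNA, were read beside their parent genes because reads could be split among them. The 26 retrocopies of HSPE1 summed to 0 TPM in all 3 wild-type libraries and to 44.9, 44.8 and 45.2 TPM with the knockout label, from 2 to 5 reads per library, and adding them raised the log2 difference of HSPE1 from 2.14 to 2.78. The 18 retrocopies of HSPD1 summed to 6.26 to 16.6 TPM in the wild type and 19.7 to 34.1 TPM with the knockout label, and the 17 of HSPA8 held at most 13 reads in any library. HSPA1B stood at 2.002, 2.58 and 3.40 times HSPA1A in the wild type and 1.41, 1.79 and 1.86 times with the knockout label, without overlap, a ratio not tested because reads of the copies may be exchanged.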
